A study of Homo sapiens with 2 samples.

Results

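The non-cycling cardiomyocytes (CMs) of blood-generating heart-forming organoids (BG-HFOs) were the cells with clear counts of 2 contractile genes and little sign of division or of another lineage. A barcode was taken when it held 500 to 9000 genes and less than 15% mitochondrial unique molecular identifiers (UMIs, each marking 1 captured transcript), at least 5 UMIs of MYH6 and at least 3 of TNNC1, none of CDH5, PTPRC or RUNX1, and at most 2 of MKI67 and TOP2A together. The cells were thus selected on their own counts of these 7 genes, which are described here and never tested. The rule found 1053 cells in organoid 32.7 and 1191 in organoid 33.10, together 2244 of the 36814 barcodes in the files. That is 6.74% of the 15632 barcodes of organoid 32.7 that passed the cell filter (exact binomial 95% interval 6.35 to 7.14%) and 6.23% of the 19117 of organoid 33.10 (5.89 to 6.58%). The mean share was 6.48% ± 0.358 (SD, n = 2 organoids).

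Both organoids belonged to 1 group, and the design holds no second condition. BG-HFOs are aggregates of human pluripotent stem cells in Matrigel, driven first by the WNT activator CHIR99021 and then by the WNT inhibitor IWP2, with BMP4, bFGF, VEGF and further blood and endothelial cytokines added. Both grew from the embryonic stem cell line hES3 NKX2.5-eGFP, a single line carrying a green fluorescent reporter at the NKX2-5 locus, so the NKX2-5 level below is read from a modified locus. Each was dissociated by itself on day 14 with a cardiomyocyte dissociation medium and gave 1 single-cell library of transcript 3′ ends, with no sort for CMs. The CMs carried 12222679 UMIs in organoid 32.7 and 15198476 in organoid 33.10, with a median per cell of 10353 and 11046 UMIs and 3784 and 4083 genes. The libraries shared 100 barcodes, of which 3 were CMs in organoid 32.7 and 3 in organoid 33.10, none of them in both.

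A CM contracts when calcium enters through voltage-gated channels, triggers further release from the sarcoplasmic reticulum and binds troponin C, which frees actin to slide along myosin. The embryonic heart tube begins with a mixed set of myosin and troponin isoforms; chambers later take on atrial or ventricular sets, and the atrioventricular canal and pacemaker cells keep a slow-conducting programme under TBX2 and TBX3. Young CMs still divide and live largely on glycolysis, and they send signals to the endocardium and epicardium beside them.

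The cells carried their label. Levels are given as CPM, the UMIs of a gene per 1000000 UMIs of all CMs of an organoid, and wherever a pair of values stands together the first is organoid 32.7 and the second organoid 33.10. ACTC1, the cardiac actin, stood at 4990 and 3348 CPM. TTN, the giant spring of the sarcomere, stood at 4975 and 4864 CPM. The cardiac homeobox factor NKX2-5 stood at 304 and 250 CPM. None of these 3 marker genes was used by the rule. UMIs of transcript ends are not divided by length and intronic reads were counted, which adds to long genes such as TTN, so levels are compared between cells and not between genes.

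At the lower edge of the rule, the 117 and 100 CMs with 5 or 6 UMIs of MYH6 held 4025 and 2347 CPM of ACTC1 and a median of 4710 and 5544 UMIs. The 119 and 111 cells just outside, with 3 or 4 UMIs of MYH6, held 2640 and 1932 CPM of ACTC1 and a median of 3986 and 4381 UMIs. At the TNNC1 limit, the 74 and 93 CMs with 3 or 4 UMIs of it held 2340 and 1326 CPM of ACTC1 and a median of 6234.5 and 6245 UMIs, and the 90 and 63 cells outside, with 1 or 2, held 1418 and 1702 CPM and a median of 7170.5 and 7468 UMIs. Cells on either side of both limits thus held contractile transcripts, and those outside were shallower at the MYH6 limit and deeper at the TNNC1 limit. Of all filtered cells that met the MYH6 and TNNC1 limits, 1630 and 1862, the rule set aside 300 and 240 with CDH5, 328 and 470 with PTPRC or RUNX1, and 152 and 195 past the limit on MKI67 and TOP2A, some of them for several reasons.

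Transcripts of other lineages were present beside the cardiac ones. The 15 endothelial markers summed to 251 and 239 CPM, led by EGFL7 at 121 and 98.8 CPM, and CDH5 was at 0 by rule. The 21 blood markers summed to 1799 and 3214 CPM, led by the fetal globin HBG2 at 521 and 965 CPM, with PTPRC and RUNX1 at 0 by rule. The 12 fibroblast and mesenchyme markers summed to 977 and 840 CPM, led by COL3A1 at 303 and 219 CPM. Epicardial markers summed to 615 and 574 CPM, led by KRT19 at 478 and 425 CPM, while endoderm markers summed to 257 and 52.1 CPM. KRT19 was not called between CMs and the WT1 and TBX18 positive cells described below, so its UMIs are not read as a sign of another lineage.

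For HBZ, an embryonic globin that CMs are not known to make, a UMI was found in 36.8% and 57.9% of CMs and in 41.3% and 56.3% of endothelial cells, so these UMIs are not read as expression by CMs. The 20 richest CMs of each organoid held 89.5% and 76.7% of them. The 918 UMIs of AFP in organoid 32.7 came from 54 cells, 1 of which held 682. In 362 of 1053 and 402 of 1191 CMs (34.4% and 33.8%), more than 0.25% of the UMIs came from the 69 markers of those 5 lists, KRT19 included. The part of these cells, and of doublets, in the results was not tested except where a value without them is given.

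In the thick filament, the atrial light chains MYL7 and MYL4 stood at 7140 and 5691 CPM and at 5263 and 4628 CPM. The ventricular essential light chain MYL3 stood at 2202 and 1809 CPM. Both sets were therefore present in the summed CMs, and for each of these 3 genes the organoids differed by less than 1.5-fold. MYH7, the slow myosin heavy chain of the ventricle, stood at 60.5 and 34.5 CPM and its light chain partner MYL2 at 18.3 and 10.4 CPM, while MYH6, which the rule used, stood at 2560 and 2017 CPM. MYBPC3, which tunes cross-bridges, stood at 195 and 185 CPM.

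In the thin filament, TPM1, the tropomyosin that covers the myosin sites on actin, stood at 8528 and 7514 CPM. TNNT2, cardiac troponin T, stood at 6165 and 5356 CPM. Of troponin I, the fetal form TNNI1 stood at 3773.8 and 3201 CPM and the adult form TNNI3 at 203 and 178 CPM. ACTA1, the skeletal actin, stood at 9.90 and 7.17 CPM. Of the Z disc, LDB3 stood at 487 and 505 CPM, ACTN2 at 348 and 323 CPM and the stretch-linked CSRP3 at 277 and 203 CPM.

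**Figure D1:**
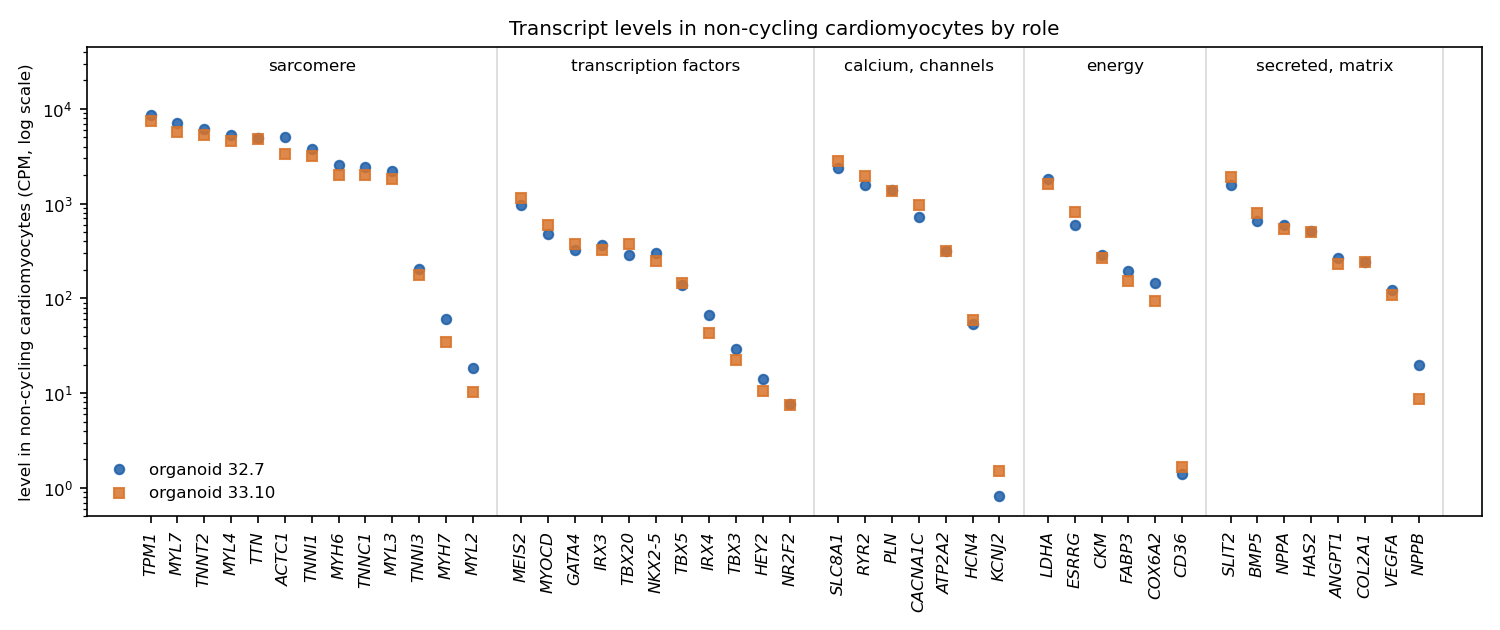
Level of selected genes in non-cycling cardiomyocytes of organoid 32.7 (circles) and organoid 33.10 (squares), in CPM on a log axis, in columns by role. The 2 organoids lie close together for most genes, with wider gaps among others for MYH7 (60.5 and 34.5 CPM), NPPB (19.6 and 8.62 CPM), MYL2 and KCNJ2. Levels are not compared between genes.

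The promoters of contractile genes are shown because many of these genes moved together in the comparisons that follow. Upstream windows of 250 bases were read from the RefSeq promoter table (GRCh38.p14), which held 43 windows for 29 of the 41 sarcomere genes listed. Searched on both strands were the CArG box, the palindromic site of serum response factor, GATAA, the core bound by GATA factors, and CATTCC, the core bound by TEAD factors. The CArG box was found in 9 of the 43 sarcomere windows, from 6 genes, and in 1.159% of all 35116 windows. GATAA was in 17 of the 43 and in 20.44% of all windows, and CATTCC in 9 of the 43 and in 11.89% of all windows. Windows of 1 gene can overlap, and a match is a run of letters, not evidence of binding. Printed 5′ to 3′ in the direction of transcription and ending at the base before the start site, all 4 lie on the minus strand; capitals mark the matches, none of which overlap: MYL7 at chr7:44141333-44141582 (all 3 motifs), ACTC1 at chr15:34795550-34795799 (CArG box), the natriuretic peptide gene NPPA at chr1:11847784-11848033 (GATAA on each strand) and the stretch-responsive ANKRD1 at chr10:90921088-90921337 (CATTCC read on the other strand, and GATAA likewise).
MYL7: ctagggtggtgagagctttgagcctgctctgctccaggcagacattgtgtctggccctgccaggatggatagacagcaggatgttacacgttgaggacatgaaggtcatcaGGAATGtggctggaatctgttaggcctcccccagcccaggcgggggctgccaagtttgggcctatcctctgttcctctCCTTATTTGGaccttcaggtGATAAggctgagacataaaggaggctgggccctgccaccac
ACTC1: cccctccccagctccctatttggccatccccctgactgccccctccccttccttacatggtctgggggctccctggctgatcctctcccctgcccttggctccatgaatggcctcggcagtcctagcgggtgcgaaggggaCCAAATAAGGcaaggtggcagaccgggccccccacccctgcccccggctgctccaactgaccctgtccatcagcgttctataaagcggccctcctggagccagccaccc
NPPA: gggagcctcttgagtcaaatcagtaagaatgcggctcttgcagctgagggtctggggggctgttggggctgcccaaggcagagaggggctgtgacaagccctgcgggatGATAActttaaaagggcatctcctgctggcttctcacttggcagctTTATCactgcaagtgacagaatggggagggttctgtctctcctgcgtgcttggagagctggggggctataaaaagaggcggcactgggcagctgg
ANKRD1: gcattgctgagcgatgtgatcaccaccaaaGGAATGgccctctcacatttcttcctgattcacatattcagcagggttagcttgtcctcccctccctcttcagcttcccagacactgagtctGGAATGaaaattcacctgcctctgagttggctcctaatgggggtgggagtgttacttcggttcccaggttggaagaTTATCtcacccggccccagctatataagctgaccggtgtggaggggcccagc

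Several cardiac transcription factors were present, and of the 34 listed 3 stood under 5 CPM in each organoid. GATA4, which acts with NKX2-5, stood at 328 and 378 CPM, TBX5 at 138 and 146 CPM and TBX20 at 285 and 379 CPM. MYOCD, the coactivator of serum response factor, stood at 479 and 595 CPM. HAND1 and HAND2, which pattern the ventricles, stood at 129 and 114 CPM and at 135 and 132 CPM. The ventricular repressor IRX4 stood at 67.3 and 43.0 CPM and had a UMI in 38.2% and 31.9% of CMs, against 0.347% and 0.205% of endothelial cells. The atrial regulators NR2F2 and NR2F1 stood at 7.77 and 7.57 CPM and at 2.13 and 1.12 CPM, and the sinus node factor SHOX2 at 0 and 0.0658 CPM. ISL1, which marks second heart field progenitors, stood at 10.2 and 6.45 CPM. Of pluripotency factors, POU5F1 was at 0 and 0.132 CPM and NANOG at 0.164 and 0.263 CPM.

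Genes of calcium release were read next. The release channel RYR2 stood at 1583 and 1976 CPM, the exchanger SLC8A1 at 2353 and 2849 CPM, PLN, the brake on the calcium pump, at 1401 and 1345 CPM and the pump ATP2A2 at 317 and 319 CPM. CASQ2, which stores calcium in the mature reticulum, stood at 1.55 and 0.921 CPM. S100A1 stood at 1.72 and 1.51 CPM. Of surface channels, the pacemaker channel HCN4 stood at 53.3 and 59.0 CPM, with a UMI in 33.4% and 40.6% of CMs. Endothelial cells had one in 0.893% and 1.07%, and the WT1 and TBX18 positive cells described below in 22.7% and 22.9%. KCNJ2, which holds the resting potential of working myocardium, stood at 0.818 and 1.51 CPM.

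In energy metabolism the glycolytic LDHA stood at 1806 and 1617 CPM and LDHB at 635 and 567 CPM. The muscle creatine kinase CKM stood at 287 and 266 CPM and the fatty acid binding protein FABP3 at 197 and 152 CPM. Of genes of fatty acid uptake and burning, CD36 stood at 1.39 and 1.64 CPM, CPT1B at 4.66 and 3.95 CPM and PDK4 at 0.327 and 0.0658 CPM. Mitochondrially encoded genes took 6.89% and 6.83% of the summed UMIs.

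Several ligands known from heart development were carried by CMs. SLIT2, a guidance ligand, stood at 1582 and 1912 CPM and BMP5 at 650 and 805 CPM. HAS2, which makes the hyaluronan of cardiac jelly, stood at 513 and 505 CPM. ANGPT1, the ligand of the endothelial receptor TEK, stood at 265 and 232 CPM and VEGFA at 124 and 108 CPM. NPPA stood at 590 and 544 CPM with CORIN, the protease that activates its product, at 259 and 283 CPM, and NPPB at 19.6 and 8.62 CPM. COL2A1, better known from cartilage, stood at 244 and 241 CPM and had a UMI in 65.3% and 68.3% of CMs against 1.24% and 1.13% of endothelial cells. Of receptors, the neuregulin receptor ERBB4 stood at 421 and 441 CPM, the muscarinic receptor CHRM2 at 503 and 710 CPM and the adrenergic receptor ADRB1 at 0.0818 and 0.526 CPM.

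Chamber genes were also read cell by cell. To hold depth fixed, each cell was thinned to 5000 UMIs, which kept 798 and 1035 CMs and left out the 255 and 156 shallower ones. MYL7 then had a median of 25 and 23 UMIs per cell, with quartiles of 11 to 51 and 11 to 40 UMIs. NPPA was at 0 in 40.0% and 39.9% of cells, with a median of 1 UMI and a maximum of 36 and 46 UMIs. MYH7 was at 0 in 86.5% and 89.9% of cells, MYL2 in 93.6% and 96.5% and IRX4 in 75.9% and 81.3%; at levels this low most cells hold no UMI by sampling alone, so these shares say little about how evenly the 3 genes are spread. Before thinning, a MYH7 UMI was found in 20.1% and 15.7% of CMs against 0.347% and 0.205% of endothelial cells, and an NPPA UMI in 72.3% and 71.3% against 3.32% and 2.92%, so both lay well above the share in a cell type that should lack them. The endothelial cells were gated to hold at most 1 MYH6 UMI, which can lower their shares of cardiac genes.

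The variance of UMIs over cells divided by their mean was 35.9 and 24.3 for MYL7, 8.73 and 6.73 for TNNT2 and 7.37 and 8.42 for NPPA, against a median of 1.15 and 1.14 over the 3556 genes with a mean of at least 0.25 UMIs in both organoids. The genes with the largest excess spread for their mean were mostly globins (HBA2, HBZ, HBA1, HBE1, HBG2, HBG1), the platelet genes PF4 and PPBP, TAC1 and ANKRD1. TAC1, which encodes substance P, had a UMI in 131 and 119 CMs, 12.4% and 9.99%, and the 20 richest cells of each organoid held 85.5% and 87.4% of its UMIs. Endothelial cells had one in 7.64% and 6.09%, and the WT1 and TBX18 positive cells described below in 13.4% and 13.2%, so its share in CMs is not read as particular to them. ANKRD1 had a UMI in 22.4% and 20.0% of CMs and at least 10 in 50 and 43 of them.

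The CMs were set beside 3 other classes of the same organoids, each gated on a few genes, to show where they differ. UMIs were summed over the cells of a class in each organoid and compared by the quasi-likelihood test of edgeR with Benjamini-Hochberg adjustment over all 18503 genes tested, calling a gene at an adjusted p under 0.05. The 9 genes that defined any class were left out of tests and counts. Because the classes were cut from the same cells whose genes are compared, genes that go with MYH6, or with the gate of the other class, were bound to differ; a p-value here measures only how far the 2 organoids varied and is no independent evidence for the classes. A gene's lower sum in a class can come from fewer cells that carry it or from less RNA in each.

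Cycling CMs met the same gate but held at least 3 UMIs of MKI67 and TOP2A. There were 43 and 58 of them, with a median of 20651 and 21866 UMIs. Taking the highest doublet scores of each organoid up to a set share marked 27.9% and 51.7% of them, against 12.2% and 15.03% of the non-cycling CMs. Across all genes 7.66% were called, 443 higher in non-cycling CMs (2.39%) and 974 lower (5.26%).

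Some contractile and calcium genes were higher in the non-cycling CMs. The MYH6 and TNNC1 limits were set on raw UMIs, and cycling CMs were deeper, so they could pass with a lower share of cardiac transcripts. This also holds for the thinned alternative, since cells were gated before thinning. How far it shaped the differences was not tested. Of the 13 thick filament genes tested 4 were higher and none lower, and of the 24 thin filament and Z disc genes 8 were higher and none lower, with median log2 fold changes of 0.61 and 0.53 against 0.05 over all genes. TNNI3 was among the 10 higher genes named for their fold change, at 203 and 178 CPM against 70.5 and 91.2 CPM in cycling CMs (log2 fold change 1.27 ± 0.20 (SE, n = 2 organoids), edgeR adjusted p = 0.0024). TNNT2 was higher by 0.87 ± 0.17 (adjusted p = 0.00726), MYL3 by 0.80 ± 0.16 (adjusted p = 0.00979), TTN by 0.61 ± 0.15 (adjusted p = 0.0314) on the log2 scale. In each of these genes both non-cycling sums lay above both cycling sums.

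Of 18 calcium handling genes 9 were higher and none lower, with a median of 0.58 (0.51 with S100A1, which had no UMI in cycling CMs, set at the bound that 3 counts give). PLN was at 1401 and 1345 CPM against 514 and 622 CPM (1.32 ± 0.15, adjusted p = 0.000157). TRDN, which anchors the release channel complex, was at 470 and 512 CPM against 219 and 231 CPM (1.18 ± 0.14, adjusted p = 0.000227). Of 29 muscle energy genes 11 were higher and none lower, among them the oxygen store MB (1.12 ± 0.18, adjusted p = 0.00275) and the glycogen phosphorylase PYGM (1.19 ± 0.20, adjusted p = 0.00378), while none of the 13 mitochondrially encoded genes was called.

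Of 32 cardiac transcription factors 9 were higher and 1 lower. NKX2-5 was at 304 and 250 CPM against 163 and 167 CPM (0.80 ± 0.18, adjusted p = 0.0204) and IRX2 at 59.2 and 48.6 CPM against 16.6 and 27.0 CPM (1.31 ± 0.28, adjusted p = 0.0152). Beside PLN, IRX2 and TNNI3, the 10 higher genes named for their fold change were PPFIA2, GRIA1, SPHKAP, CNTN5, LIX1-AS1, CLEC2A and CRHBP, several of them better known from neurons. IRX2 was 0.96 without organoid 32.7 and 2.01 without 33.10, and likewise LIX1-AS1 was 2.45 and 0.88, CNTN5 2.17 and 1.10 and CRHBP 0.88 and 2.80. Calls were lost for PPFIA2 with cells thinned to 5000 UMIs (1.21, adjusted p = 0.194), for CNTN5 without predicted doublets (adjusted p = 0.167), for LIX1-AS1 in 2 alternatives and for CRHBP in 3. GRIA1, a glutamate receptor subunit, was at 132 and 164 CPM against 59.1 and 40.9 CPM (1.65 ± 0.22, adjusted p = 0.000624). The guidance ligand SEMA3A was higher by 1.16 ± 0.13 (adjusted p = 0.000202). NPPA differed by 0.28 ± 0.13 and was not called (adjusted p = 0.255).

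Cell cycle genes were lower, as the gate fixes. Of 34 such genes 27 were lower and none higher, and the 10 lower genes named for their fold change were all mitotic or histone genes: DLGAP5, KIF18B, UBE2C, HIST1H3B, CIT, KIFC1, CEP55, KIF2C, CDCA8 and NDC80, with log2 fold changes from -5.61 to -5.20. UBE2C, which helps to end mitosis, was at 5.07 and 3.68 CPM against 253 and 178 CPM. Outside the mitotic genes CCND2, a G1 cyclin, did not pass the test (0.26 ± 0.18, adjusted p = 0.452), nor did the cell cycle inhibitor CDKN1C (0.35 ± 0.32, adjusted p = 0.584).

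Of 8 fetal growth genes 3 were lower and none higher, with a median of -0.56. HMGA2, a chromatin factor of growing fetal tissue, was at 86.4 and 76.9 CPM against 225 and 179 CPM (-1.24 ± 0.13, adjusted p = 0.000124), and DLK1 at 421 and 345 CPM against 666 and 655 CPM (-0.73 ± 0.14, adjusted p = 0.00844). The growth factor PTN was lower (-1.53 ± 0.18, adjusted p = 0.000299). Of 11 fibroblast markers 5 were lower and none higher, COL1A1 by -0.92 ± 0.17 (adjusted p = 0.00596). Of 17 blood markers 6 were lower, with HBZ at 437 and 437 CPM against 1951 and 4279 CPM (-2.79). HBZ was not called without predicted doublets (adjusted p = 0.101) and turned to 0.18 without cells rich in other markers (adjusted p = 0.897), where 0 of 17 blood markers were lower. That last setting leaves cells out by their UMIs of these same blood markers, so it is no test of them.

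These counts depended on the cells admitted. With predicted doublets left out, 273 of 18392 genes were higher (1.48%) and 746 lower (4.06%). Then 1 of 13 thick filament, 3 of 24 thin filament, 4 of 19 calcium and 8 of 29 energy genes and 6 of 32 transcription factors were higher, and 24 of 34 cell cycle genes, 2 of 8 fetal growth genes, 5 of 11 fibroblast markers and 0 of 17 blood markers lower. TNNT2 was then at 0.75 (adjusted p = 0.0602), MYL3 at 0.70 (adjusted p = 0.0623) and TTN at 0.50 (adjusted p = 0.0907), none of them called. With cells over 0.25% of other markers left out, 19 of the 43 and 35 of the 58 cycling CMs were gone, and 289 of 17991 genes were higher (1.61%) and 699 lower (3.89%). Then 0 of 13 thick filament, 3 of 24 thin filament, 4 of 20 calcium and 5 of 29 energy genes and 3 of 32 transcription factors were higher, and of 11 fibroblast markers 1 was lower and 1 higher, with a median of -0.33; 2 of 8 fetal growth genes were lower, with a median of -0.25. The calls of TNNT2 (0.50, adjusted p = 0.128), MYL3 (0.58, adjusted p = 0.075), TTN (0.34, adjusted p = 0.264), NKX2-5 (0.60, adjusted p = 0.129) and MB (0.53, adjusted p = 0.176) were lost. DLK1 was then at -0.22 (adjusted p = 0.78), PTN at -0.86 (adjusted p = 0.139) and COL1A1 at -0.52 (adjusted p = 0.169). The fibroblast markers, COL1A1 included, are among the markers by which cells were left out, so their values here are no test of them. With each cell thinned to 5000 UMIs, 220 of 15747 genes were higher (1.4%) and 356 lower (2.26%). Then 5 of 13 thick filament, 9 of 24 thin filament and 8 of 17 calcium genes were higher, as were 4 of 29 energy genes and 5 of 32 transcription factors. Lower were 1 of 8 fetal growth genes, 1 of 11 fibroblast markers and 6 of 17 blood markers, and DLK1, COL1A1 and IRX2 did not pass the test. With an assumed 10% of UMIs removed as free RNA, NKX2-5 (adjusted p = 0.0773) and PYGM (adjusted p = 0.0528) did not pass. With the organoid as a block in the fit, 738 genes were higher and 1211 lower.

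**Figure D2:**
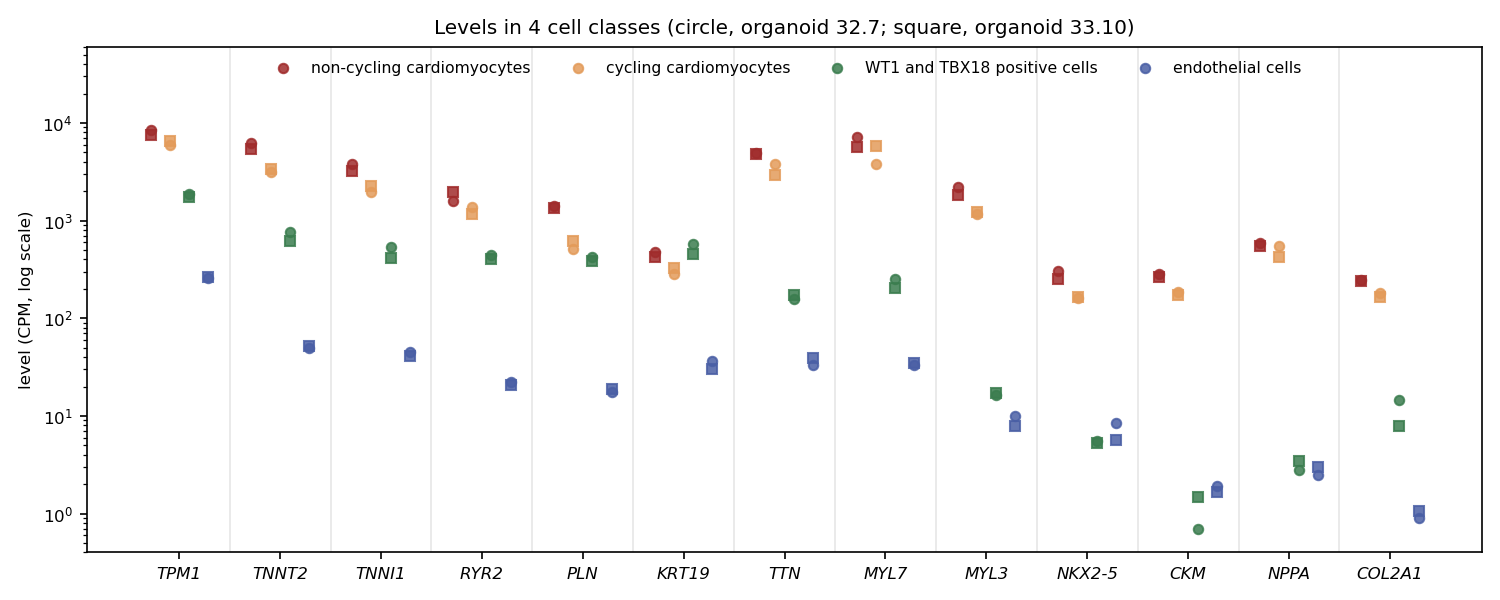
Level of 13 genes in 4 cell classes of each organoid, in CPM on a log axis, circles for organoid 32.7 and squares for organoid 33.10. TPM1, TNNT2, TNNI1, RYR2 and PLN reach 384 to 1864 CPM in the WT1 and TBX18 positive cells, KRT19 overlaps there with non-cycling cardiomyocytes, and MYL3, NKX2-5, CKM and NPPA are below 20 CPM in both other lineages.

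The cells with WT1 and TBX18, genes of the epicardium and its precursor the proepicardium, numbered 321 and 446, held at most 1 MYH6 UMI and were non-cycling. Of all genes 35.2% were called, 3046 higher in CMs (16.5%) and 3469 lower (18.7%). All 13 thick filament genes tested were higher, with a median log2 fold change of 4.92. Of 24 thin filament and Z disc genes 21 were higher and 1, the slow skeletal troponin TNNT1, was lower, with a median of 3.16.

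The contractile genes ranged in their fold change over the WT1 and TBX18 positive cells. MYL3 was at 2202 and 1809 CPM against 16.4 and 17.3 CPM (7.002 ± 0.22, adjusted p = 4.87e-09). TTN was higher by 5.01 ± 0.18 (adjusted p = 9.6e-09) and MYL7 by 4.92 ± 0.27 (adjusted p = 1.32e-07). TNNT2 was at 762 and 620 CPM in the WT1 and TBX18 positive cells (3.17 ± 0.18, adjusted p = 1.75e-07). In those cells TNNI1 was at 543 and 416 CPM (2.97 ± 0.20, adjusted p = 5.47e-07) and TPM1 at 1864 and 1739 CPM (2.26 ± 0.16, adjusted p = 1.21e-06). The sums of the 2 classes did not overlap for any of these 6 genes, and TNNT2 stood at only 49.2 and 52.5 CPM in the endothelial cells described below.

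Calcium genes ranged likewise. Of 18 genes 13 were higher in CMs and 3 lower, with a median of 1.66. TRDN was higher by 5.10 ± 0.16 (adjusted p = 7.03e-09), but RYR2 stood at 440 and 404 CPM in the WT1 and TBX18 positive cells (2.18 ± 0.15, adjusted p = 8.51e-07) and PLN at 427 and 384 CPM (1.87 ± 0.15, adjusted p = 2.39e-06). CACNA2D1, an auxiliary calcium channel subunit, was lower in CMs, at 116 and 113 CPM against 275 and 286 CPM (-1.18 ± 0.11, adjusted p = 1.24e-05).

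Muscle energy genes were higher in 26 of 29 and lower in none, and all 13 mitochondrially encoded genes were higher, with a median of 1.52. Of the genes named in this comparison CKM had the largest fold change in the main fit, close to that of KCNQ3 (8.04 ± 0.49). CKM was at 287 and 266 CPM against 0.695 and 1.46 CPM (8.05 ± 0.22, adjusted p = 1.95e-09). COX6A2, the muscle form of a cytochrome oxidase subunit, was at 145 and 93.5 CPM against 0.232 and 0.913 CPM (7.70 ± 0.39, adjusted p = 8.76e-08). The other 8 largest were KCNQ3, NPPA, VCAM1, IRX4, TCAP, MYL3, SMPX and FAM189A2, from 8.04 to 6.90, among them VCAM1, an adhesion molecule used as a surface marker of young CMs.

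Transcription factors were split. Of 32 factors 19 were higher in CMs, among them NKX2-5 (5.79 ± 0.24, adjusted p = 2.03e-08), MYOCD (3.42 ± 0.22, adjusted p = 3.96e-07) and IRX3 (2.61 ± 0.14, adjusted p = 1.17e-07). Lower in CMs were 10, among them GATA4, at 328 and 378 CPM against 561 and 603 CPM (-0.61 ± 0.12, adjusted p = 0.00163), HAND2 (-0.99 ± 0.12, adjusted p = 7.79e-05) and the GATA cofactor ZFPM2 (-1.16 ± 0.17, adjusted p = 0.000345). NR2F2 was lower by -3.73 ± 0.20 on the log2 scale (adjusted p = 1.14e-07).

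Ligands were higher in 18 of 48 and lower in 13, with a median of 0.02. FGF18 was at 44.8 and 39.1 CPM in CMs against 0 and 0.730 CPM (6.76 ± 0.51, adjusted p = 1.56e-06). SLIT2 was higher by 3.35 ± 0.23 (adjusted p = 8.09e-07) and COL2A1 by 4.57 ± 0.21 (adjusted p = 3.79e-08), while the growth factor IGF2 was lower (-3.13 ± 0.23, adjusted p = 1.47e-06). HGF, a ligand of the mesenchyme, was among the 10 largest lower genes, with CFI, AQP3, PTPRT, SCN7A, PTGIS, CCBE1, EFNA5, JPH4 and PCDH18, from -4.37 to -3.77. CCBE1, a secreted lymphatic factor, was at 12.2 and 8.82 CPM against 152 and 179 CPM.

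Fibroblast markers were lower in 8 of 11, with a median of -1.99; COL1A1 was at 217 and 191 CPM against 1290 and 1093 CPM. Of 8 epicardial markers tested 4 were lower (TCF21, TNNT1, BNC1 and BNC2) and 2 higher, ALDH1A2 by 1.42 and UPK1B by 2.81 on the log2 scale. TCF21 was lower by -3.51 ± 0.13 (adjusted p = 1.28e-08), whereas the keratin KRT19 did not pass the test, at 478 and 425 CPM against 575 and 453 CPM (-0.08 ± 0.17, adjusted p = 0.751). Blocking on the organoid called 3611 higher and 4246 lower genes.

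**Figure D3:**
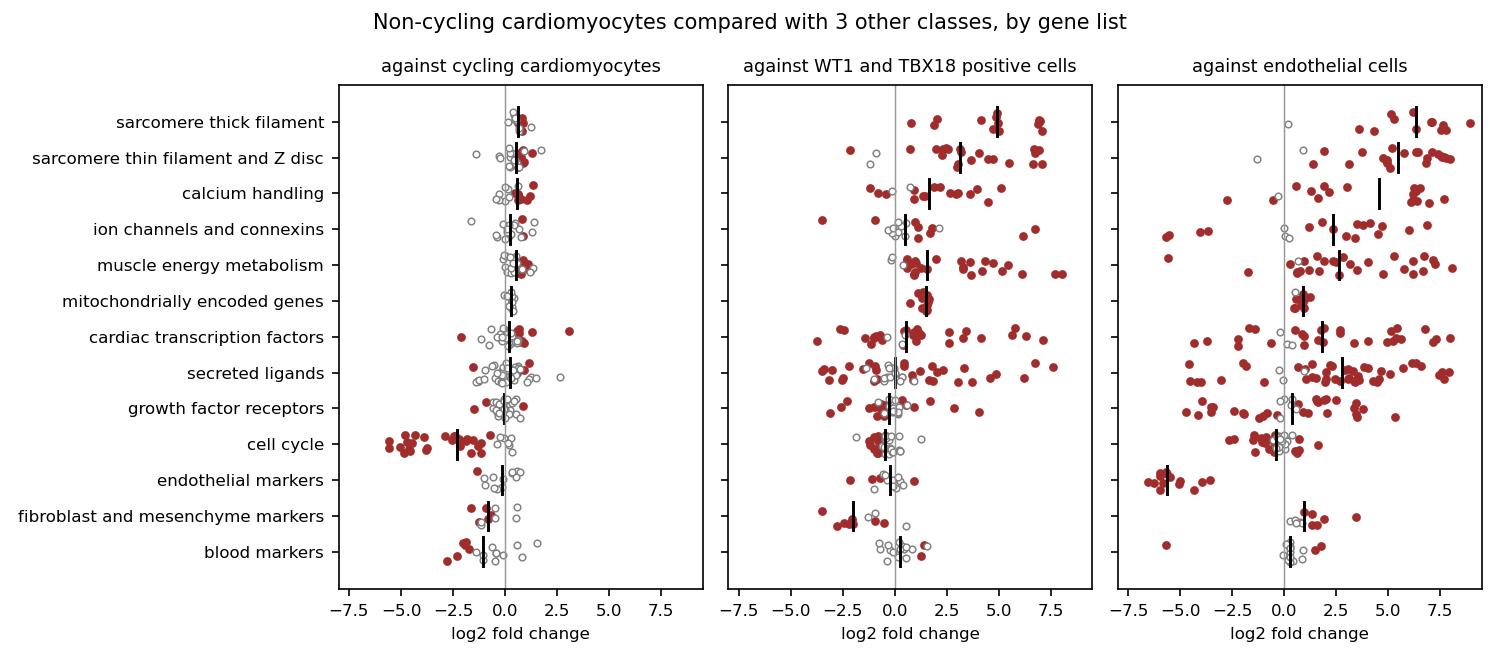
Log2 fold change of non-cycling cardiomyocytes over each of 3 other classes for the genes of 13 lists, filled points past the test's threshold, open points not, black bars the medians of the genes drawn; genes that defined a class or had no UMI in 1 of the groups are not drawn. Most cell cycle genes are filled and below 0 against cycling cardiomyocytes, most contractile genes filled and above 0 against the other 2 classes, and the endothelial markers filled and below 0 against endothelial cells.

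Endothelial cells, gated on CDH5, numbered 2016 and 1954, held at most 1 MYH6 UMI and were non-cycling. Of all genes 62.4% were called, 5416 higher in CMs (29.3%) and 6125 lower (33.1%). Of contractile genes, 12 of 13 thick filament genes were higher, with a median of 6.35, and 22 of 24 thin filament and Z disc genes, with a median of 5.45. All 14 endothelial markers tested were lower, with a median of -5.65. RYR2 was higher by 6.34 ± 0.18 (adjusted p = 3.2e-10) and PLN by 6.21 ± 0.18 (adjusted p = 3.2e-10). RYR2 was thus at 22.0 and 20.7 CPM in endothelial cells, far under its level in the WT1 and TBX18 positive cells.

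Ligands were higher in CMs in 37 of 48 and lower in 8, with a median of 2.79 against -0.06 over all genes. Of 35 growth factor receptors 16 were higher in CMs and 13 lower, with a median of 0.39. ANGPT1 was at 265 and 232 CPM against 4.69 and 4.55 CPM (5.71 ± 0.16, adjusted p = 2.95e-10), and its receptor TEK at 5.89 and 6.25 CPM against 114 and 127 CPM (-4.34 ± 0.16, adjusted p = 1.45e-09). VEGFA was at 124 and 108 CPM against 17.3 and 18.7 CPM (2.66 ± 0.19, adjusted p = 2.61e-07), and its receptor KDR at 64.5 and 63.1 CPM against 973 and 978 CPM (-3.97 ± 0.12, adjusted p = 4.58e-10). ERBB4 lay on the side of the CMs (5.34 ± 0.20, adjusted p = 1.77e-09), while its ligand NRG1, at 23.3 and 48.0 CPM against 35.6 and 37.7 CPM, overlapped between the classes and was not called (-0.07 ± 0.24, adjusted p = 0.814).

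Of genes shaping cardiac jelly, HAS2 was higher in CMs (5.10 ± 0.15, adjusted p = 3.68e-10) and HAPLN1, which links hyaluronan to proteoglycans, was lower, at 86.9 and 100.4 CPM against 1551 and 1451 CPM (-4.04 ± 0.16, adjusted p = 2.93e-09). COL2A1 was among the 10 higher genes named for their fold change, at 244 and 241 CPM against 0.902 and 1.06 CPM (7.91 ± 0.24, adjusted p = 3.63e-10). The others were AHNAK2, MAPK4, COX6A2, VCAM1, LDB3, IRX4, ASB2, TRIM55 and MYL3, from 8.55 to 7.79.

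Of 32 cardiac transcription factors 22 were higher in CMs than in endothelial cells and 7 lower, and of 19 ion channels and connexins 12 were higher and 4 lower. MEF2C was at 411 and 452 CPM against 1118 and 1123 CPM (-1.41 ± 0.13, adjusted p = 2.87e-06). The gap junction gene GJA1 was at 37.6 and 30.3 CPM against 430 and 398 CPM (-3.64 ± 0.19, adjusted p = 1.93e-08). KCNJ2 was at 0.818 and 1.51 CPM against 56.7 and 51.5 CPM (-5.53 ± 0.24, adjusted p = 1.37e-08), and the Notch targets HEY2 (-2.24 ± 0.29, adjusted p = 3.65e-05) and HEY1 (-1.68 ± 0.16, adjusted p = 2.76e-06) were lower as well.

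Dissociation and stress response genes were lower in 14 of 20 and higher in 4. The immediate early gene IER2 was at 30.4 and 32.9 CPM against 398 and 372 CPM (-3.64 ± 0.13, adjusted p = 1.25e-09). The 10 largest lower genes were PRND, SOST, ADAMTS5, ADGRF5, CLDN5, GIMAP8, HPGD, ESM1, ROBO4 and EMP1, from -7.19 to -6.26, most of them known from vessels. ESM1, a marker of sprouting tip cells, was at 24.95 and 20.3 CPM against 1680 and 1809 CPM. With the organoid as a block, 5985 genes were higher and 6859 lower.

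The CMs were then divided by a single chamber gene, after thinning every cell to 5000 UMIs to set depth equal. An NPPA UMI was present in 479 and 622 cells, 60.0% and 60.1%, and absent from 319 and 413. Of 12980 genes 0.0924% were called, 1 higher in cells with NPPA (0.0077%) and 11 lower (0.0847%). The receptor tyrosine kinase EPHA4 was at 83.9 and 98.4 CPM with NPPA against 48.3 and 31.0 CPM without (1.29 ± 0.20, edgeR adjusted p = 0.0488), and was 1.74 without organoid 32.7 and 0.90 without 33.10.

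Lower with NPPA was RSPO3, an activator of WNT signalling, at 64.3 and 55.3 CPM against 130 and 153 CPM (-1.19 ± 0.15, adjusted p = 0.0232). KCNIP4, a potassium channel subunit, was at 764 and 807 CPM against 1523 and 1741 CPM (-0.995 ± 0.13, adjusted p = 0.0232). The collagen gene COL1A2 was at 132 and 133 CPM against 260 and 264 CPM (-0.93 ± 0.13, adjusted p = 0.0281). LRP1B, TAC1, ITGA8, MECOM, LSAMP and ZNF385B were lower by -2.43 to -1.02. TAC1, whose UMIs came from few cells, was 0.01 when cells were not thinned. With cells over 0.25% of other markers left out, LRP1B and KCNIP4 were called, while EPHA4 (adjusted p = 0.0951), RSPO3 (adjusted p = 0.121), COL1A2 (-0.69, adjusted p = 0.405), MECOM (adjusted p = 0.131), ZNF385B (adjusted p = 0.0951), TAC1 (adjusted p = 0.996), ITGA8 (adjusted p = 0.625) and LSAMP (-0.28, adjusted p = 0.996) were not. COL1A2 is itself among the markers by which those cells were left out. When cells were not thinned, ITGA8 (-0.67, adjusted p = 0.174), KCNIP4 (adjusted p = 0.0653) and ZNF385B (adjusted p = 0.0717) did not pass, and EPHA4 did not with RLE scaling (adjusted p = 0.0504).

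None of 13 thick filament, 22 thin filament, 10 ventricular and 10 atrial genes passed the test in the fit without a block. MYL7 differed by 0.72 (adjusted p = 0.223), CKM by 0.74 (adjusted p = 0.103) and CORIN by 0.88 (adjusted p = 0.0512), none of them called without a block on the organoid. The medians of the 13 thick filament and 22 thin filament genes were 0.42 and 0.42, those of the ventricular and atrial genes 0.39 and 0.26 and that of 9 fibroblast markers -0.63, against -0.0007 over all genes.

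Since both sides of the split came from the same organoids, a block on the organoid was also fitted, and it called 648 of 12980 genes, 327 higher (2.52%) and 321 lower (2.47%). It called MYL7 (adjusted p = 2.13e-62), CKM (adjusted p = 3.45e-21) and CORIN (adjusted p = 7.32e-28), each higher with NPPA, as were 11 of 13 thick filament and 14 of 22 thin filament genes and 8 of 15 blood markers, while 1 thin filament gene and 6 of 9 fibroblast markers were lower. The fold change of MYL7 was 0.71 with the block. With only 2 organoids both fits leave few residual degrees of freedom. The block takes out what both sides of an organoid share, so its p-values are not read as a measure of spread between organoids. Why they are so small was not tested. The 2 fits differ in their calls, and neither is read as settling the filament genes. With cells over 0.25% of other markers left out, the fit without a block called 3 genes and the 2 filament medians were 0.30 and 0.33.

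**Figure D4:**
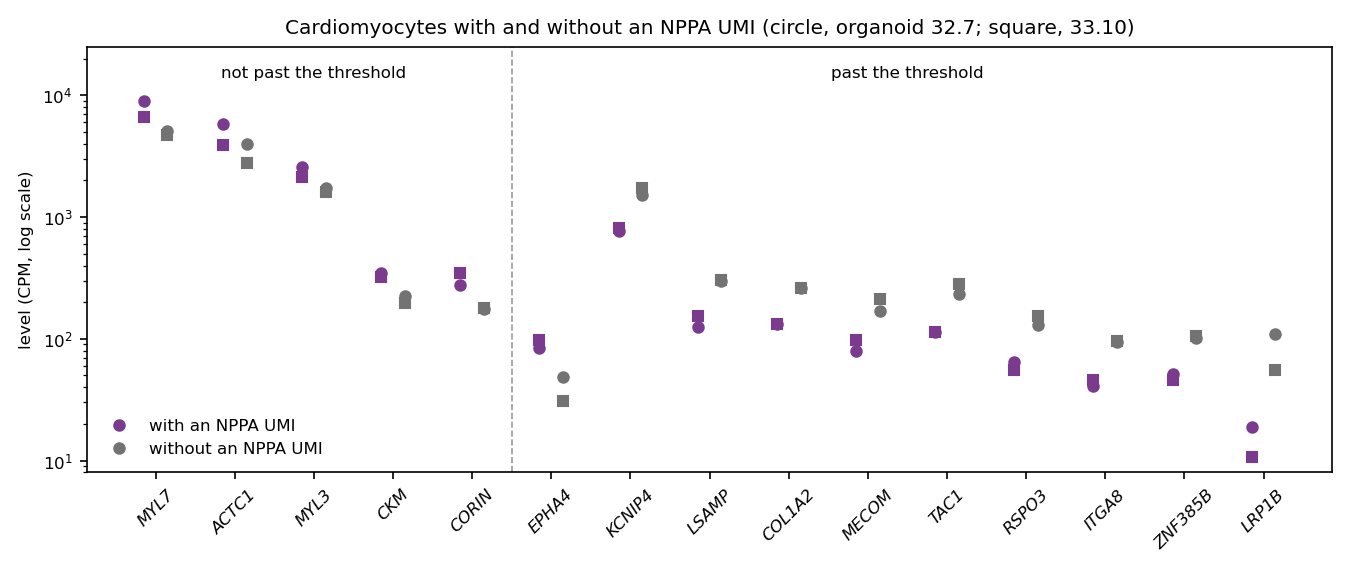
Level of 15 genes in non-cycling cardiomyocytes with (purple) and without (grey) an NPPA UMI, each cell thinned to 5000 UMIs, in CPM on a log axis, circles for organoid 32.7 and squares for organoid 33.10. In the fit without a block on the organoid, the 5 genes on the left did not pass the test and the 10 on the right did. RSPO3, KCNIP4 and COL1A2 lie lower in the cells with NPPA in both organoids.

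A UMI of TBX2 or TBX3, repressors of the chamber programme, was present in 163 of 798 and 163 of 1035 thinned cells, 20.4% and 15.7%. No gene of 12549 (0%) was called by edgeR or by DESeq2, while 342 had an unadjusted p under 0.05, and the block called 49. BMP2, the signal of the atrioventricular canal, differed by -0.01, HCN4 by 0.24, RSPO3 by 0.07 and NPPA by -0.11 on the log2 scale, none of them called. At 1 or 2 UMIs per cell, a missing UMI does not show that a cell lacked these factors.

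MYH7 was added as a dividing gene after its level had been seen. It was present in 108 and 105 thinned cells, 13.5% and 10.1%. Of 12651 genes 0.0474% were called, 5 higher (0.0395%) and 1 lower (0.0079%). ANKRD1 was at 556 and 284 CPM with MYH7 against 93.6 and 74.8 CPM without (2.35 ± 0.23, edgeR adjusted p = 1.77e-05), with the 20 richest cells of all CMs holding 49.5% and 47.9% of its UMIs.

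Other genes higher with MYH7 were the Z disc gene MYOZ2 (1.35 ± 0.22, adjusted p = 0.0195; 1.74 without organoid 32.7 and 0.79 without 33.10), the cytokine receptor TNFRSF12A (1.22 ± 0.20, adjusted p = 0.0195) and TAGLN, an actin-binding gene of smooth and embryonic heart muscle (1.06 ± 0.18, adjusted p = 0.02). IGFBP2 was lower, at 230 and 173 CPM against 456 and 380 CPM (-1.02 ± 0.18, adjusted p = 0.0359). MYL2 differed by 1.67 (adjusted p = 0.226), NPPA by 0.51, MYL7 by 0.39 and TTN by 0.27, none of them called without a block on the organoid. With the block, a fit with few residual degrees of freedom, MYL2 was called (1.62, edgeR adjusted p = 0.00551). The block called 62 genes and, with cells over 0.25% of other markers left out, only ANKRD1 was called. TNFRSF12A, TAGLN and IGFBP2 did not pass when cells were not thinned. A split on MYL2 was not made, since only 51 and 36 cells held it.

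Between the organoids, the CMs were alike in most genes. Of 4001 genes at 50 CPM or more in either organoid, 98.4% differed by less than 1.5-fold and 99.6% by less than 2-fold, and with 1 library each these differences have no test. Higher in organoid 33.10 by more than 2-fold were 13 genes, among them the interferon-induced ISG15, IFI6, IFI27, IFIT1 and MX1: ISG15, a ubiquitin-like modifier, stood at 314 and 971 CPM, IFI6 at 225 and 554 CPM and the antiviral GTPase MX1 at 14.6 and 51.4 CPM. ISG15 also differed in all other cells of the organoids, at 522 and 1691 CPM, as did IFI6 at 732 and 1622 CPM. Others were the globin HBG1 and the platelet genes PF4 and PPBP, with the higher blood marker sum given above, and the neural genes CTNNA2 at 53.2 and 171 CPM and NAV3 at 109 and 262 CPM. Higher in organoid 32.7 were 4 genes, AFP, APOA1, LUM and SARM1; of the 728 UMIs of SARM1 there, 610 came from 1 cell.

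**Figure D5:**
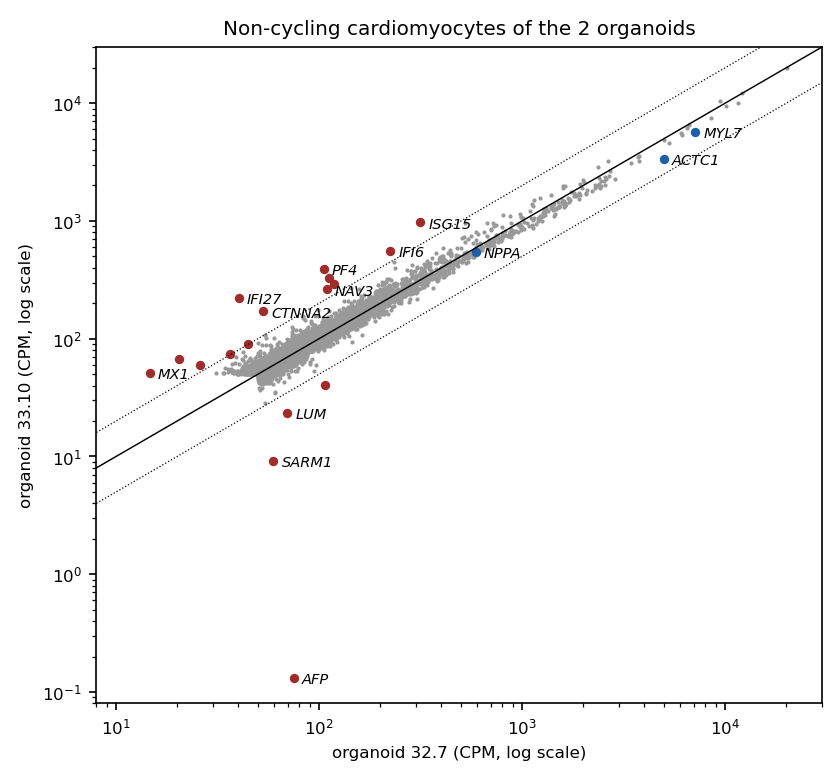
Level of each of 4001 genes in non-cycling cardiomyocytes of organoid 32.7 (x axis) against organoid 33.10 (y axis), in CPM on log axes, with lines at equality and at 2-fold. Red points lie beyond 2-fold, with ISG15, IFI27, IFI6 and MX1 above and AFP, LUM and SARM1 below; MYL7, ACTC1 and NPPA (blue) lie within.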

How the data were processed

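Single-cell libraries (10x Genomics Chromium) of 2 day-14 BG-HFOs were analysed. Per the file headers and the study's methods, the deposited counts are UMIs per gene and barcode made by Cell Ranger 7.0.0 on GRCh38, with intronic reads counted; the authors' later removal of free RNA with SoupX and their scaling of the libraries to one sequencing depth are not in these files. The files held 16866 and 19948 barcodes with 191152562 and 233818881 UMIs. Whole UMIs are molecules, but intervals cover counting error only.

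Cells with 500 to 9000 genes and under 15% mitochondrial UMIs were kept and classes were cut by UMI limits. Endothelial cells had at least 2 CDH5 UMIs and at most 1 MYH6 UMI. They and the WT1 and TBX18 positive cells were non-cycling. The members and gene lists were chosen with earlier results of these data known. Counts were summed per class and organoid and fitted over all genes with edgeR 4.0.16 (TMM, filterByExpr, quasi-likelihood, Benjamini-Hochberg) in R 4.3.3; SEs are the log2 fold change over the root of F. The 2 organoids were cultured separately, as the study states. Named genes were list members by level and fold change and, per comparison, the 10 called genes a direction with the largest fold change, at least 50 CPM in the higher class, the same direction in both organoids and no clone name. Classes of 1 organoid share that organoid, which pairs the sums; deviations from class means correlated between classes at 0.105 (cycling CMs and WT1 and TBX18 positive cells) to 0.394 (CMs and endothelial cells) over 18510 genes.

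On simulated counts with changes of log2 1 and 2 (100 genes each), the fits recovered 61 and 99 genes for the cycling comparison, 84 and 100 for the WT1 and TBX18 comparison and 92 and 100 for the endothelial one, over 18510 genes, and 71 and 92 for the NPPA split over 12986, 27 and 90 for the TBX2 or TBX3 split over 12556 and 50 and 91 for the MYH7 split over 12657. The simulated counts had the same spread for all genes and no organoid effect, and sparse genes were not changed. These numbers therefore do not measure how many real changes the fits would find. Doublets were scored with Scrublet in scanpy 1.11.5; its own threshold marked 0 cells in organoid 32.7 and 3295 in 33.10, so the highest scores, 0.8% per 1000 barcodes, were taken in both (1970 and 2973 cells) and left out only as an alternative. Positions are from GENCODE and promoters from RefSeq; protein sequences were not used here. Some genes of the lists are not reported here by name. Alternatives were DESeq2 1.42.0, RLE scaling, no count filter, an organoid block, stricter and looser gates, thinning, the study's own cell filter, free RNA removed, doublets left out and, added after the data were seen, cells rich in other markers left out and the MYH7 split.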

Additional observations from a re-analysis of the deposited data

How the results depend on the processing

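The share of CMs was 4.87% and 4.72% under the stricter gate (MYH6 of at least 10, TNNC1 of at least 5 UMIs), 7.98% and 7.09% under the looser one and 4.42% and 4.13% without cells rich in other markers. For cycling CMs the genes called were 2440 with no count filter and 576 with cells thinned; higher genes were 1352 with no filter, 738 under the organoid block, 220 thinned, 273 without doublets and 289 without cells rich in other markers, and lower genes 356 thinned. HBZ turned from -2.79 to 0.18 without cells rich in other markers (adjusted p = 0.897), but it is among the markers by which those cells were left out. Against WT1 and TBX18 positive cells, lower genes were 2238 when thinned; in the endothelial comparison every count was within 1.5 times the main one under each alternative run. The NPPA split called 25 genes with DESeq2, 182 with no filter, 648 under the block, 26 unthinned, 44 without doublets and 3 without cells rich in other markers; TAC1 turned to 0.011 unthinned. The TBX2 or TBX3 split called 9 genes with no filter, 49 under the block and 1 without doublets, and the MYH7 split 42, 62 under the block and 1 without cells rich in other markers. The causes were not tested. Leaving out an organoid left no residual degrees of freedom, so only fold changes were computed. None of the called genes followed in the 5 comparisons with calls changed sign. A fold change moved by more than 1.5 times for 6 of 41 genes against cycling CMs (IRX2, LIX1-AS1, CNTN5, CRHBP, HIST1H3B, and HBZ at -1.98 without organoid 33.10), for 5 of 58 against WT1 and TBX18 positive cells (COX6A2 from 6.87 to 9.38, FAM189A2 from 6.34 to 9.12, CKM from 7.70 to 8.82, and FGF18 and IRX4, which had no UMI in 1 of those sums), for 5 of 50 against endothelial cells, among them PRND from -8.62 to -6.56, HPGD from -8.12 to -5.51 and KCNJ2 from -6.16 to -5.08, and for 0 of 10 and 0 of 5 in the NPPA and MYH7 splits. Of 45 genes followed against cycling CMs, 8 lost their call thinned, 10 without doublets and 15 without cells rich in other markers, besides HBZ, which turned. With free RNA removed, 71 of 191 gene levels of at least 50 CPM moved by more than the SD between organoids. Depth limits genes at 1 or 2 UMIs per cell, and 2 organoids of 1 line limit every p-value.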
